A study of Mus musculus with 6 samples.

Results

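Matricellular proteins are secreted proteins that sit in the extracellular matrix and signal to cells, rather than carry load. The genes described here are the thrombospondins Thbs1 and Thbs2, and Postn (periostin), Tnc (tenascin C), Sparc and Spp1 (osteopontin). They also include the CCN family members Ccn1 and Ccn2, and Fn1, which encodes fibronectin. They were chosen by name, with earlier results of these data known. Of these 9 genes, 8 had at least 1 probe set that the array annotation gave to that gene alone, out of 18193 genes named on the array. Spp1 was not listed there and was not analysed here. The 8 genes had 18 such probe sets, and each gene is described by its brightest one unless another is named.

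The samples were pancreatic tumour cells, as the labels call them, of C57BL/6 mice at 11 weeks of age, on 6 Affymetrix arrays. All 6 samples share the tumour genotype of the labels: a heterozygous Ras oncogene allele (spelled Keas there), p53f/f and ptf1a-Cre, a Cre driver active in the pancreatic epithelial lineage and not in fibroblasts or blood cells. Of these, 3 samples were wt at Msi1 (wild-type below) and 3 had the genotype Msi1 -/- (Msi1-null below). Msi1 encodes the RNA-binding protein Musashi 1. The labels do not say how Msi1 was disrupted, in which cells, whether tumours were sorted or pooled, or that each sample was a separate animal, and the p-values below refer to the spread among these samples alone. The number of arrays limits the precision.

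Fibronectin is laid down as fibrils that cells grip through integrins, and it forms a scaffold for later matrix. Thrombospondins, periostin and tenascin C bind to this scaffold and to integrins, while Ccn1 and Ccn2 are fast-responding products of mechanical and growth factor signals, with Ccn2 a classic target of TGF-beta and of the transcription coactivators YAP and TAZ. In pancreatic cancer the dense stroma is rich in these proteins, and activated fibroblasts are a main source of most of them. Tumour epithelium and macrophages can also make several.

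Across the arrays the median deposited intensity lay between 159.2 and 164.3. The 3 Msi1 probe sets were dim in both genotypes, with the brightest, 1452287_at, at 144, 150.4 and 257 in wild-type and 141, 168 and 127 in Msi1-null arrays. Where they lie relative to the disrupted part of the gene is not stated, and they are no test of the labels. Wild-type replicate 3 had a female pattern of sex-linked transcripts, with Xist at 6226 and the Y-linked gene Eif2s3y at 88.2, against 131 to 387 and 716 to 944 in the other 5 arrays. Without this array 6 of the 8 genes had a lower Msi1-null mean, against 7 with it, and the genes that it moved most are given without it below.

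Promoters are shown for 4 genes that form 2 pairs of similar pattern over the arrays, Thbs2 with Postn and Tnc with Ccn1. Closer pairs, such as Thbs1 with Fn1 and Postn with Ccn2, each held a gene with no promoter among the sequences used. Each sequence holds the 250 bases before a RefSeq start site (GRCm38.p6), 5′ to 3′ on the strand of the gene. Capitals mark matches to the motifs searched on both strands: GGAATG, bound by TEAD, the partner of YAP and TAZ; TGACTCA, bound by AP-1, a factor of growth signals; CAGACA, an element bound by SMAD proteins; TATAAA, the TATA box; and the CArG box of SRF. None of the matches overlapped another.
Thbs2, chr17:14694263-14694512, minus strand: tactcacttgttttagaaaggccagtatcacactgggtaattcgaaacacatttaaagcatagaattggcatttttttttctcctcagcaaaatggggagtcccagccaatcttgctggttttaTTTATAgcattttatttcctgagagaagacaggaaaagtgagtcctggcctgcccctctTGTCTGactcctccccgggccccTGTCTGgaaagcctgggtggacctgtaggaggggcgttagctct
Postn, chr3:54360857-54361106, plus strand, the second of 2 start sites: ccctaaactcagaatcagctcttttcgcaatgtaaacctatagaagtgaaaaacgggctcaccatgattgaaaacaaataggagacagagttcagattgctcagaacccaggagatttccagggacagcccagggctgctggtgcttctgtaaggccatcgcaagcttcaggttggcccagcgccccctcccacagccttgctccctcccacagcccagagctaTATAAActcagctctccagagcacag
Tnc, chr4:64046937-64047186, minus strand, the second of 2 start sites: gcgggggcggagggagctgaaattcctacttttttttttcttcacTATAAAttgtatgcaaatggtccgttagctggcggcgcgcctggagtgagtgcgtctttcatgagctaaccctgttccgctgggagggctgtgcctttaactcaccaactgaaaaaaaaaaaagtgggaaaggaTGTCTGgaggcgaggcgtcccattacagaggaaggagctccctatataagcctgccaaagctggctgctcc
Ccn1, chr3:145649986-145650235, minus strand: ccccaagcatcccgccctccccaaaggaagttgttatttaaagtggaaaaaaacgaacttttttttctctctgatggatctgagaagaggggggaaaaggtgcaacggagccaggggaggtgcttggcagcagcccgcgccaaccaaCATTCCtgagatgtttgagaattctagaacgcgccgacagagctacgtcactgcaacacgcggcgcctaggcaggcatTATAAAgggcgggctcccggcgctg
The Ccn1 window held 1 TEAD match, between 103 and 98 bases before the start, and a TATA box between 25 and 20 bases before it. Thbs2 held 2 SMAD elements and Tnc held 1, all on the opposite strand. Postn, at this start site, held a TATA box between 26 and 21 bases before the start. The other Postn start site, not shown, held no match, and the other Tnc start site held a TATA box alone. Of all 32851 windows of this length, 12.6% held the TEAD motif, 17.1% the SMAD element, 12.4% the TATA box, 4.46% an AP-1 motif and 1.47% a CArG box. No AP-1 or CArG match lay in the 4 windows, which says only that these letters are not there. The letters of the TATA box also lay farther out, on the opposite strand in Thbs2 and 205 to 200 bases before the start in Tnc. The promoter of Sparc held 1 SMAD element, and those of Thbs1, Ccn2 and Fn1 were not among the sequences used here.

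The comparison asked whether matrix-signalling genes differ between tumours with and without Msi1. No gene of the 8 passed the threshold. Mean levels were lower in Msi1-null arrays for Thbs1, Thbs2, Postn, Tnc, Ccn1, Ccn2 and Fn1, and higher for Sparc, so 7 of 8 were lower, where 48.6% of all probe sets were. The median log2 difference of the 8 was -0.27, against 0.0023 over all 45037 probe sets, and single genes ran from -0.65 for Thbs2 to 0.10 for Sparc. Since the genes were chosen with earlier results of these data known, this count and this median are descriptions and were not tested. In limma 0 of 8 had an adjusted p under 0.05 (0% of all probe sets did), and 1 of 8, Thbs1, had an unadjusted p under 0.05 (3.01% of all probe sets). The adjusted p was 0.9997 for each of them (limma, Benjamini-Hochberg over all probe sets). Of the 18 probe sets, 15 had lower and 3 had higher means in Msi1-null arrays, and the 3 higher ones were those of Sparc. In bulk samples fewer cells of a type and less RNA per cell cannot be told apart.

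**Figure D1:**
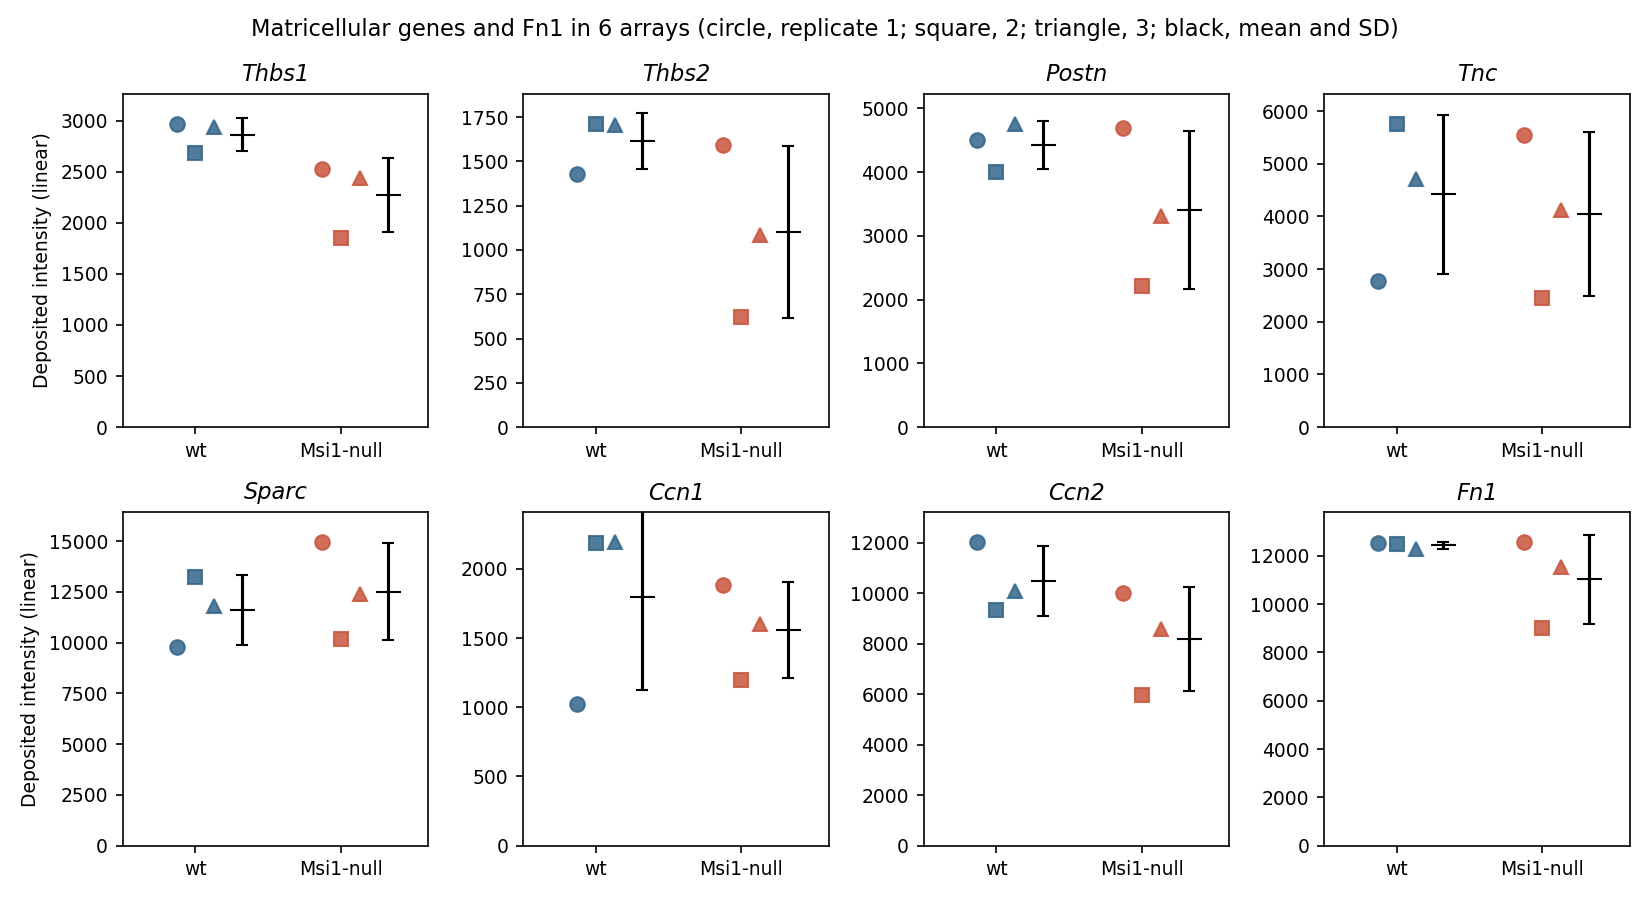
Deposited linear intensity of the brightest probe set of each of 8 genes (vertical axes start at 0) in 3 wild-type (blue) and 3 Msi1-null (red) arrays, with the mean and SD of each group in black. The square in red, Msi1-null replicate 2, is the lowest of the 6 arrays for 6 of the 8 genes, and the groups are apart only for Thbs1.

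Thbs1, an inhibitor of blood vessel growth that also activates latent TGF-beta, read 2967.5, 2679.9 and 2938 in wild-type replicates 1 to 3 and 2527, 1853 and 2436 in Msi1-null replicates 1 to 3. Every Msi1-null array lay below every wild-type array, which was so for 1 of the 8 genes and for 3.71% of all probe sets. The means were 2862 ± 158 and 2272 ± 365 (SD, n = 3), a log2 difference of -0.34 ± 0.14 (SE; 95% interval -0.66 to -0.02; two-sided exact permutation p = 0.1, and 3 arrays against 3 can give none smaller). A dimmer Thbs1 probe set, 1450377_at, differed by -0.41 ± 0.16 (SE), with 691, 586 and 719 against 489, 419 and 609. There Msi1-null replicate 3 lay within the wild-type range. At the brighter probe set the difference was -0.20 when Msi1-null replicate 2 was left out. A further probe set shared by Thbs1 and Pald1 was not used.

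Thbs2, the related thrombospondin of fibroblasts, had the lowest Msi1-null to wild-type ratio of the 8, at 0.64. Its values were 1429.6, 1712 and 1702 in wild-type and 1589.5, 619 and 1087 in Msi1-null arrays. Msi1-null replicate 1 lay inside the wild-type range, while replicates 2 and 3 lay below it. The log2 difference was -0.65 ± 0.31 (SE; 95% interval -1.38 to 0.07; exact permutation p = 0.2), or -0.29 without Msi1-null replicate 2 and -0.97 without Msi1-null replicate 1. This difference was larger in size than that of 99.5% of all probe sets, and the spread of Thbs2 over the 6 arrays was larger than that of 98.9% of them. The other Thbs2 probe sets, 1450663_at and 1447862_x_at, differed by -0.31 ± 0.27 and -0.40 ± 0.23 (SE).

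Postn, a fibroblast product that links collagen to tenascin C, read 4506, 4010.0 and 4759 in wild-type arrays against 4698, 2221 and 3311 in Msi1-null arrays. Again Msi1-null replicate 1 was among the wild-type values and the other 2 were below them. The log2 difference was -0.44 ± 0.25 (SE; 95% interval -1.02 to 0.14; exact permutation p = 0.3), and -0.16 without Msi1-null replicate 2. The within-group spread was wider in Msi1-null arrays, with means of 4425 ± 381 and 3409.8 ± 1241 (SD, n = 3). A log2 SD above the wild-type one was seen for 7 of the 8 genes and for 61.4% of all probe sets.

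Tnc, an anti-adhesive glycoprotein induced in wounds and tumours, varied as much within as between genotypes. It read 2783, 5757 and 4713 in wild-type and 5553, 2449 and 4119.5 in Msi1-null arrays. Both groups held 1 low array, wild-type replicate 1 and Msi1-null replicate 2, and the log2 difference was -0.14 ± 0.35 (SE; 95% interval -0.96 to 0.67; exact permutation p = 0.7). Leaving out Msi1-null replicate 2 gave 0.18, leaving out wild-type replicate 2 gave 0.08, and leaving out wild-type replicate 1 gave -0.44. Without wild-type replicate 3 it was -0.065.

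Sparc, a collagen-binding protein of fibroblasts and endothelium, was the gene with a higher Msi1-null mean. Its values were 9797, 13248 and 11789 in wild-type and 14935, 10161 and 12378.5 in Msi1-null arrays, which overlapped. The log2 difference was 0.10 ± 0.16 (SE; 95% interval -0.27 to 0.47; exact permutation p = 0.7). It was -0.02 without wild-type replicate 1 and -0.04 without Msi1-null replicate 1. A second bright probe set, 1448392_at, gave 0.13 ± 0.26 (SE). The third, 1458204_at, was above array background on only 2 arrays.

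**Figure D2:**
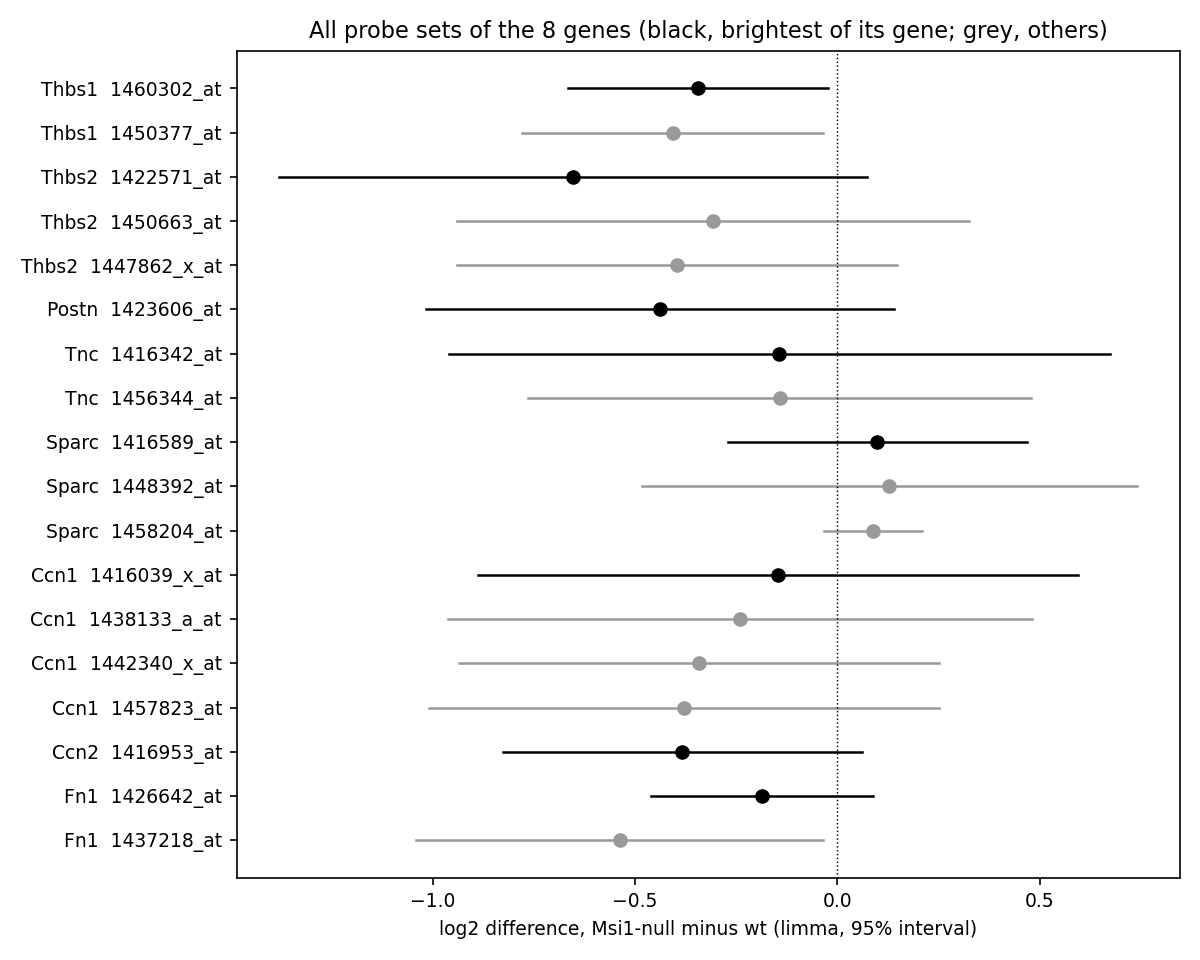
The log2 difference (Msi1-null minus wild-type; point) and its 95% limma interval (line) for the 18 probe sets of the 8 genes, by gene, with the brightest of each gene in black. The 3 Sparc probe sets lie above 0 and the other 15 below it, and the intervals of both Thbs1 probe sets and of the dimmer Fn1 probe set do not reach 0.

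The CCN genes, whose products bind integrins and heparan sulphate, had different orders of arrays. Ccn1 read 1022, 2185 and 2192 in wild-type and 1886, 1195 and 1599 in Msi1-null arrays, and the log2 difference was -0.15 ± 0.32 (SE; 95% interval -0.89 to 0.59; exact permutation p = 0.8). Wild-type replicate 1 was the lowest of the 6 arrays, and without it the difference was -0.51. With wild-type replicate 3 left out it was 0.04, and with wild-type replicate 2 or Msi1-null replicate 2 left out it was 0.03. The other 3 Ccn1 probe sets differed by -0.24, -0.34 and -0.38.

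Ccn2 read 12007.5, 9348 and 10083 in wild-type and 10017.5, 5947 and 8559 in Msi1-null arrays. Here wild-type replicate 1 was the highest array, the reverse of its place for Ccn1. The means were 10479.6 ± 1373 and 8174 ± 2062 (SD, n = 3), a log2 difference of -0.38 ± 0.19 (SE; 95% interval -0.83 to 0.06; exact permutation p = 0.2). Only Msi1-null replicate 1 reached the wild-type range. The difference was -0.17 without Msi1-null replicate 2.

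Fn1 was nearly level in wild-type arrays, at 12506, 12501 and 12258, and read 12553, 8996 and 11520.5 in Msi1-null arrays. The lower Msi1-null mean rested mostly on replicate 2, since the log2 difference of -0.19 ± 0.12 (SE; 95% interval -0.46 to 0.09; exact permutation p = 0.4) was -0.05 without it. A dimmer Fn1 probe set, 1437218_at, differed by -0.54 ± 0.21 (SE; 95% interval -1.04 to -0.03). It read 970.2, 785 and 766 in wild-type and 495, 478 and 805 in Msi1-null arrays, so that Msi1-null replicate 3 lay within the wild-type range and Msi1-null replicate 1 was low only at this probe set. The 2 Fn1 probe sets therefore differ on which Msi1-null arrays were low.

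**Figure D3:**
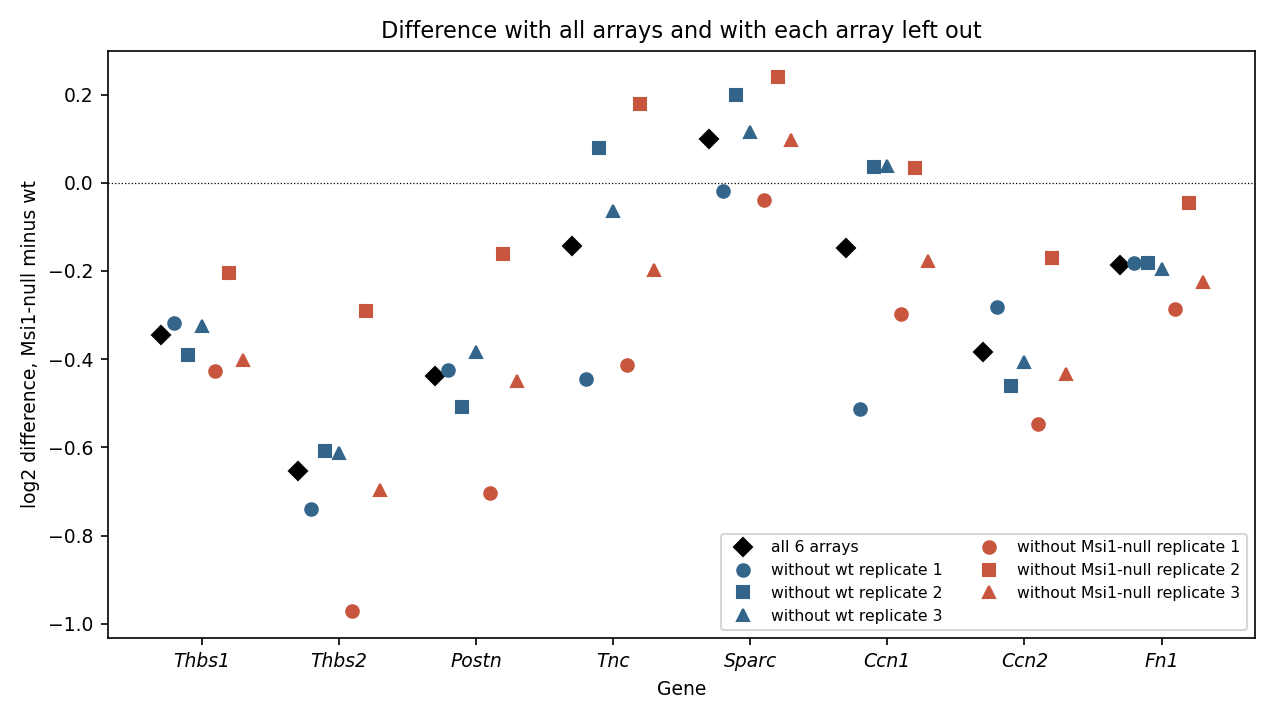
The log2 difference (Msi1-null minus wild-type) of each of 8 genes with all 6 arrays (black diamond) and with 1 array left out (blue, a wild-type array; red, an Msi1-null array; circle, square and triangle for replicates 1 to 3). Leaving out Msi1-null replicate 2 (red square) gives the value nearest to 0 for Thbs1, Thbs2, Postn, Ccn2 and Fn1, and values above 0 for Tnc, Sparc and Ccn1.

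The arrays ordered most of these genes alike. Msi1-null replicate 1 was above replicate 3, and replicate 3 above replicate 2, for 8 of 8 genes at their brightest probe set, for 12 of the 18 probe sets, and for 19.8% of all probe sets; this order was singled out after the values were seen. Msi1-null replicate 2 was the lowest of the 6 arrays for 6 of the 8, where 15.9% of all probe sets had their lowest value in it. The median deviation of the 8 genes from their own means was -0.54 in that array and -0.04 in Msi1-null replicate 3. It was 0.27 in Msi1-null replicate 1 and between 0.13 and 0.22 in wild-type arrays. Without Msi1-null replicate 2 the median log2 difference of the 8 was -0.10, and 5 of 8 were lower. Wild-type replicate 1 divided the genes, as it was the lowest array for Sparc and Ccn1, the lowest wild-type array for Tnc and Thbs2 as well, and the highest array for Thbs1 and Ccn2.

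Within the Msi1-null arrays stromal and macrophage markers followed an order similar to that of the 8 genes. Within the wild-type arrays this varied by gene and list. Thbs2, Tnc and Sparc had the wild-type order replicate 2 above 3 above 1. The macrophage medians had this order, and so had the myofibroblast and pericyte medians and the endothelial medians. Fn1 had the order of the fibroblast medians, replicate 1 above 2 above 3, with its replicates 1 and 2 nearly equal. The rest of the 8 had neither order. Of 12 fibroblast markers 11 were measured, all above array background on the 6 arrays, and 8 of the 11 had the same order within the Msi1-null arrays, as had 9 of 10 macrophage markers. The median deviation of these markers was -0.29 in Msi1-null replicate 2 and 0.28 in replicate 1, and that of 10 macrophage markers was -0.42 and 0.41. In wild-type replicates 1 to 3 it was 0.12, 0.04 and -0.13 for fibroblast markers and -0.16, 0.21 and -0.04 for macrophage markers, so among wild-type arrays replicate 3 had the highest median of the 8 genes and the lowest of the fibroblast list. Between genotypes the fibroblast markers had a median log2 difference of 0.01, and leaving out 1 array gave -0.12 (Msi1-null replicate 1) to 0.16 (Msi1-null replicate 2). For the macrophage markers it was -0.02, and from -0.24 to 0.20 when the same arrays were left out. Of these 10 markers 2 were lower without overlap, Chil3, a chitinase-like protein of macrophages (-3.13 ± 0.64, SE), and Arg1, arginase 1 (-0.80 ± 0.23), neither of which passed in limma. Summed fibroblast marker intensity ranged from 54690.4 to 60205 in wild-type and from 46404 to 69110 in Msi1-null arrays, and summed macrophage intensity from 43442 to 53664 and from 30329 to 53835. Chil3 made up 16139.7 of the highest wild-type sum, that of replicate 1, and without this gene the macrophage sums were 37525, 46249 and 39465 in wild-type and 53378, 29628 and 40443 in Msi1-null arrays. Of 10 epithelial markers, all measured, 1 had that order, and the median deviation was -0.07 in Msi1-null replicate 2 and -0.26 in replicate 1. The part of these cell types in the values of the 8 genes was not tested.

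Further marker lists were summed in the same way. The 8 myofibroblast and pericyte markers ranged from 8794 to 17774 in wild-type and from 10101 to 22169 in Msi1-null arrays. Their median deviation was -0.45, 0.43 and 0.0015 in wild-type replicates 1 to 3. In Msi1-null replicates 1 to 3 it was 0.56, -0.39 and -0.05. The 7 endothelial markers ranged from 4526 to 6031 in wild-type and from 4999 to 7538 in Msi1-null arrays. The 10 epithelial markers ranged from 56829 to 64689 and from 53249 to 74317. Acinar markers, 8 of 10 measured, ranged from 35922 to 55334 and from 12391 to 34734, with a median log2 difference of -1.42. Platelet markers, carried by the cells that store most blood Thbs1, had 3 of 6 above background on all arrays and sums of 1316 to 2772 and 2039.9 to 2785. For 4 mesothelial markers, 2 of them above background on all arrays, the sums were 2924 to 5478 and 1459.96 to 4211. RNA quality, read as the ratio of the 3' to the 5' Gapdh control probe set, was 1.603 in Msi1-null replicate 2, within the range of 1.38 to 1.86 over the arrays. The lowest ratio was that of Msi1-null replicate 1. That array also had the highest array background, at 185.6, against 160.8 to 166.1 in the other arrays.

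**Figure D4:**
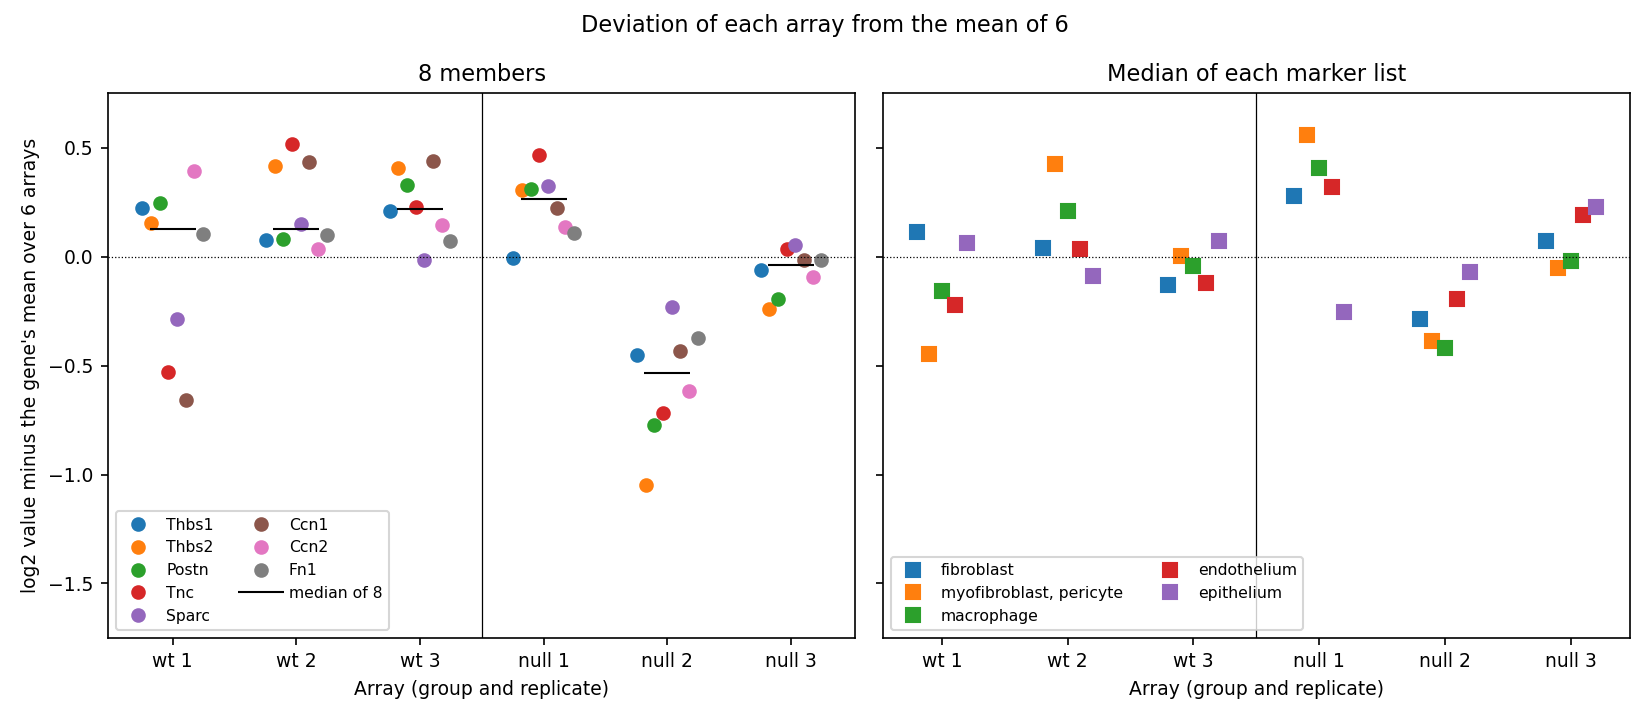
Deviation of the log2 value from its mean over the 6 arrays, for the 8 genes (left, with their median as a bar) and for the median of 5 marker lists (right), by array. Msi1-null replicate 2 holds the lowest median of the 8 genes, at -0.54, and low medians of the fibroblast, pericyte, macrophage and endothelial lists. The pericyte and endothelial medians are lower still in wild-type replicate 1, at -0.45 and -0.22.

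The 8 genes were also set against the fibroblast markers, by shifting each array by the median deviation of the 11 markers, an alternative chosen after the values were seen. On this scale every Msi1-null array lay below every wild-type array for 5 of 8 genes, Thbs1, Thbs2, Postn, Ccn2 and Fn1. The same held for 0.699% of all probe sets, a share that the shift itself lowers. It adds the spread of the markers to every transcript that does not move with them, so the count is not read against this share. The 8 genes had the markers' median order within the Msi1-null arrays, and the shift narrowed their spread there. This favours separation of the groups, so the count of 5 is not read as a result. Thbs2 differed by -0.67 ± 0.27 and Ccn2 by -0.40 ± 0.23 on the shifted log2 scale (SE), and Thbs1 by -0.36 ± 0.27. In limma 0 of the 8 had an adjusted p under 0.05 there (0.158% of all probe sets). For 1, Thbs2, the unadjusted p was under 0.05 (0.919% of all probe sets). The shift also changes the variances that limma pools over probe sets, and with them the SEs and these p-values. They are not read as results.

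Receptors and related matrix genes were counted from lists chosen with earlier results of these data known. Of 23 receptor genes, the integrins, syndecans, Cd44, Cd36, Cd47 and others that bind these proteins, 0 passed in limma, 4 had an unadjusted p under 0.05, and 16 had lower means, with a median log2 difference of -0.04. Over all probe sets 3.01% had such a p and 48.6% a lower mean, which also applies to the lists that follow. The receptor median was 0.03 without Msi1-null replicate 2. The smallest p-values belonged to Itga8, a fibronectin and osteopontin receptor subunit (-0.32 ± 0.08, SE), and Itga9, a tenascin C and osteopontin receptor subunit (1.02 ± 0.30). Itga8 was above background on 1 array. Itga9 read 153, 355 and 163 in wild-type and 389, 459 and 418 in Msi1-null arrays, without overlap. It was above background on 5 arrays, and wild-type replicates 1 and 3 lay near their array backgrounds of 160.8 and 162.4. Of all 45037 probe sets, 1839 were higher in Msi1-null arrays without overlap.

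Other matricellular and adhesive matrix genes showed no common direction, with 15 of 28 higher and 13 lower in Msi1-null arrays and a median log2 difference of 0.02. In limma 0 of 28 passed, and 0 had an unadjusted p under 0.05. Ccn3, a CCN family member often opposed to Ccn2 in fibroblasts, read 2924, 1799 and 1614 in wild-type and 1598, 337 and 1268 in Msi1-null arrays. The groups did not overlap, Msi1-null replicate 2 was again lowest, and the log2 difference was -1.21 ± 0.56 (SE). Fbln1, which encodes the fibronectin-binding protein fibulin 1, differed by 0.48 ± 0.21 (SE).

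Genes that share regulators with Ccn1 and Ccn2 were likewise mixed. Of 26 targets of YAP, TAZ or SRF, 0 passed, 1 had an unadjusted p under 0.05, and 15 had lower means, with a median log2 difference of -0.05. Ajuba, a LIM protein of the Hippo pathway, differed by -0.26 ± 0.11, and Amotl1, a YAP-binding protein, by -0.33 ± 0.16 (SE). Of 14 measured TGF-beta induced genes 0 passed, 0 had an unadjusted p under 0.05, and 6 were lower, with a median of 0.02. Skil, a SMAD corepressor, differed by -0.20 ± 0.10, and Id1 by 0.42 ± 0.21 (SE).

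Genes that assemble, crosslink or cut matrix had higher means for 16 of 27 measured members and a median log2 difference of 0.08. That direction turned with the arrays used, to -0.12 without Msi1-null replicate 1, -0.0044 without wild-type replicate 1 and -0.10 with array weights. In limma 0 passed and 1 had an unadjusted p under 0.05, Serpinh1, the collagen chaperone. Serpinh1 read 2494, 3484 and 2749 in wild-type and 6204, 4107 and 3559 in Msi1-null arrays. The groups did not overlap, as for 1839 of 45037 probe sets higher in Msi1-null arrays, and the log2 difference was 0.64 ± 0.22 (SE). Loxl1, an elastin crosslinking enzyme, differed by 0.34 ± 0.18 (SE). Several genes stand in more than 1 list, among them collagen genes in the TGF-beta and fibroblast lists.

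The genes nearest in pattern were sought for Thbs2 and Tnc, the members with the widest range over the 6 arrays, among 11099 genes above background on all arrays. Likeness was the root mean square difference between log2 values, each taken from the mean of its gene. For Thbs2 the nearest were Arg1 at 0.14, Pygl at 0.16, and F10 and Dmxl2 at 0.17 each. Arg1 read 4004, 4293 and 4485 in wild-type and 3276, 1668 and 2645 in Msi1-null arrays. For Tnc they were Clec7a at 0.08, Sirpb1a at 0.11, Dok2 at 0.13 and Smtn at 0.15. Clec7a, a myeloid receptor for fungal glucans, read 1988, 4420.05 and 3810 in wild-type and 4132, 2034 and 2929.8 in Msi1-null arrays, low in the same 2 arrays as Tnc. Among the 8 genes themselves the closest were Thbs1 and Fn1 at 0.10 and Thbs1 and Ccn2 at 0.12, and the farthest were Ccn1 and Ccn2 at 0.49.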

How the data were processed

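The deposited intensity values, 1 per probe set and array on a linear scale, were made with GCRMA (background correction by probe sequence, quantile normalization, summary of probes), per the submitters' processing notes, with version and settings not given in the sources used here. RNA (6 ug per sample) was labelled with biotin, per the labels' protocols. Groups came from the labels, and no batch is given there.

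Of 45101 probe sets 64 controls were left out. Probe sets were named by a platform annotation table (34945 with 1 symbol, 932 with several, 9160 unlisted), with symbols updated through Entrez identifiers to RefSeq GRCm38.p6 (34754 matched). Values were analysed as log2(intensity + 1), which slightly understates differences of dim transcripts. With 16 in place of 1 the Thbs2 difference was -0.644, against -0.653. Limma 3.58.1 in R 4.3.3 was fitted to all 45037 probe sets with genotype as the term (eBayes, trend), with Benjamini-Hochberg adjustment and a threshold of 0.05. Exact permutation tests used all 20 assignments of arrays. Array background was the 95th percentile of 86 olfactory, vomeronasal and taste receptor probe sets.

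Members, lists and tests were chosen with earlier results of these data known. The text names all members, the 2 genes of each list with the smallest p where none passed, and the 4 nearest in pattern to 2 members; the values of Arg1, Chil3 and Clec7a and the fibroblast scale were chosen after values were seen. The planned search of protein sequences was not run. On simulated data of this comparison (45037 probe sets, 5 runs) the fit recovered 92.2% of log2 changes of 1 and 54.4% of those of 0.5. These shares are not the recovery for the members, for which none was computed. The simulated noise was normal and independent between probe sets and arrays. Shifts that many probe sets of an array share were therefore not simulated. The median limma SE was 0.081 over all probe sets, while those of the members ran from 0.12 (Fn1) to 0.35 (Tnc). In the real fit Chil3, at -3.13 ± 0.64 (SE), did not pass. Alternatives were another pseudocount, filters, normalizations, prior variance, array weights, replicate block, other choices of probe set and threshold, and each array left out.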

Additional observations from a re-analysis of the deposited data

How the results depend on the processing

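None of the 8 genes passed the threshold under any of 19 alternatives, and the lowest adjusted p among them was 0.814 (limma). Thbs1, Thbs2, Postn, Ccn2 and Fn1 were lower in Msi1-null arrays in all 19. The filters, prior variance, replicate block and threshold cannot change these differences, so those alternatives do not bear on direction. Nor can other choices of probe set for Postn and Ccn2, which had 1 probe set each. The median difference of the 8 ran from -0.42 without Msi1-null replicate 1 to -0.10 without Msi1-null replicate 2. With 1 array left out, Tnc ran from -0.44 to 0.18, Ccn1 from -0.51 to 0.037 and Sparc from -0.039 to 0.24. Sparc was -0.041 with array weights, and the cause was not tested. Fn1 was -0.36 with its probe sets averaged and -0.54 at the one of highest SD, the dimmer probe set.

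Over all probe sets 0 to 1 passed with an array left out, the 1 being Ighm without Msi1-null replicate 1. Relative to the fibroblast markers 71 passed (414 at an unadjusted p under 0.05), among them 1 receptor gene, Itga9, and 1 other matricellular gene, Ccn3. The limma SE of Ccn3 was 0.27 there, against 0.56 without the shift, and that of Itga9 was 0.25 against 0.30. The shift changes the variances that limma pools over probe sets, so these passes are not read as results. At an unadjusted p under 0.05 the count of 1355 of 45037 probe sets (3.01%) became 886 when wild-type replicate 1 was left out, 2723 when Msi1-null replicate 1 was and 2153 with array weights. Fewer rows were tested with probe sets averaged per gene (605 of 18193, 3.33%) and with the filter at 8 (546 of 15775, 3.46%). With 1 array left out, list medians ran from -0.14 to 0.01 for targets of YAP, TAZ or SRF, from -0.08 to 0.13 for TGF-beta induced genes and from -0.04 to 0.05 for other matricellular genes.

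Same-numbered arrays deviated from their group means with correlations across probe sets of 0.17, -0.09 and 0.28 for replicates 1 to 3, so the numbers were not taken as pairs, and not every array correlated best with its own number. With the replicate block, 0 of 8 genes passed, and 2120 probe sets had an unadjusted p under 0.05. In this balanced layout the block cannot move the differences, but it changed the SEs. They fell for Thbs1, Thbs2, Postn, Ccn2 and Fn1, with Ccn2 at 0.10 against 0.19. They rose for Tnc, Sparc and Ccn1, with Tnc at 0.41 against 0.35. With 3 arrays per group, intervals were wide: that of Tnc allows log2 changes from -0.96 to 0.67.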
